A study of Mus musculus with 48 samples.

Results

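Nociceptors whose sciatic nerve had been crushed 3 days earlier, in mice that kept 1 working copy of Tsc2 in these cells, were compared directly with uninjured nociceptors that had lost both copies. Both states are studied as ways to put a sensory neuron into a growth-ready condition, and the comparison asked where the transcripts of the injured and of the Tsc2-deleted neuron differ. All libraries titled as crush control and as uninjured Tsc2 cKO (conditional knockout) were taken, 24 of the 48 libraries in the series, 12 per group. The 3 technical aliquots (A to C) of each replicate number were summed, which left 8 of 16 samples, 4 per group. The samples of uninjured control mice and of the remaining group, crush cKO mice, did not enter the comparison. Their levels are given only as a reference, and both groups joined an alternative fit of all 16 samples.

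RNA was sequenced from neurons of the fourth lumbar (L4) dorsal root ganglion (DRG), which sends axons into the sciatic nerve. Crush control mice were Nav1.8-Cre; Tsc2 flox/+; Rosa26-ZsGreen, and their ganglia lay on the crushed side. Uninjured cKO mice carried Nav1.8-Cre and the Rosa26-ZsGreen reporter with 1 floxed and 1 null Tsc2 allele, and their ganglia lay opposite a crushed nerve, so these animals were injured too, on the other side. Uninjured control samples came from Tsc2 flox/+ mice on the side opposite the crush. Crush cKO samples, by their titles from Tsc2 cKO mice after crush, numbered 4, of which 2 were male and 2 female. All mice were 8 to 9 weeks old and of a mixed C57BL/6 and AJ background, and replicates 1 and 2 were male and 3 and 4 female in each group. Cre was expressed from Nav1.8 (Scn10a), a sodium channel gene used by most nociceptors and some other sensory neurons, so Tsc2 was deleted and ZsGreen switched on in those cells and not in glia. Control neurons were thus heterozygous for Tsc2 and not wild type, and in cKO mice the null allele was present in every cell of the body. Each library came from about 100 sorted green cells. Injury and genotype both differ between the groups, so their shares in a difference cannot be told apart here.

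Tsc2 encodes tuberin, which together with Tsc1 switches off the small GTPase Rheb and so restrains mTORC1, a kinase complex that promotes protein synthesis, lipid synthesis and cell growth and holds back autophagy. Peripheral nerve injury sets off a programme in sensory neurons in which transcription factors such as Atf3, Jun, Sox11 and Stat3 raise growth-associated proteins and neuropeptides while genes of the resting nociceptor decline. An injury of this kind, the conditioning lesion, is known to speed regrowth after a later injury, and activation of mTORC1 is one way in which growth of sensory axons has been raised experimentally.

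The 24 libraries held 8339220 to 34228180 counts in genes (median 16885996), and the summed samples 43741336 to 62869624 in crush control and 47959617 to 61290435 in uninjured cKO mice (exact two-sided permutation p = 0.4). More genes were detected in every uninjured cKO sample (22539 to 23555) than in any crush control sample (21584 to 22011). The mitochondrially encoded share of counts was 1.35% ± 0.164 (SD, n = 4) in crush control and 2.10% ± 0.372 in uninjured cKO samples, again without overlap. The 10 most abundant genes took 8.78 to 9.74% of the counts in crush control and 7.85 to 8.76% in uninjured cKO samples. The exact permutation p was 0.0286 for each of these 3 measures, the smallest that 4 against 4 samples allow. Sex-linked genes matched the label in 48 of 48 libraries. The first principal component of 2000 variable genes carried 39.5% of the variance and separated the groups, with scores of 37.7 to 65.4 in crush control and -52.2 to -47.3 in uninjured cKO samples. Crush control samples varied more among themselves. Over 8490 genes with at least 10 CPM (counts scaled to a common library size), the median coefficient of variation was 13.8% in crush control and 10.8% in uninjured cKO samples. Technical aliquots of one sample also correlated less in crush control. Their lowest correlation was 0.9174 to 0.9439, against 0.9442 to 0.9761 in uninjured cKO samples (exact two-sided permutation p = 0.0286).

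Of 17300 genes tested, 2746 (15.9%) passed an adjusted p of 0.05 (edgeR, quasi-likelihood F-test; p-values adjusted by Benjamini-Hochberg). They fell into 1299 genes (7.51%) higher in crush control and 1447 (8.36%) higher in uninjured cKO samples. Below, higher and lower are used only of genes past this threshold. Each count of list members below is to be read beside these shares, and a count near them shows nothing about its list. A difference of more than 2-fold was seen for 590 and 645 of them. All 4 samples of one group lay above all 4 of the other for 3808 of all genes tested (22.01%), 2596 of the called genes among them. The median difference of all genes, as log2 of crush control over uninjured cKO, was 0.0013. The data also placed many genes close together, since the 95% interval of the difference lay within 2-fold for 8790 genes (50.8%) and within 1.5-fold for 4783 (27.6%). The smallest p-values belonged to Mmp16, which encodes a membrane-bound matrix metalloproteinase, and to Uap1l1, named here for that reason after their values were seen. Mmp16 had 218, 174, 193 and 197 CPM in crush control replicates 1 to 4 and 36.8, 32.0, 32.2 and 27.9 CPM in uninjured cKO replicates 1 to 4, a log2 difference of 2.60 ± 0.11 (SE; adjusted p = 8.27e-06). Uap1l1 went the other way, with 9.42 to 12.5 CPM against 66.8 to 93.9 CPM and a log2 difference of -2.85 ± 0.14.

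**Figure D1:**
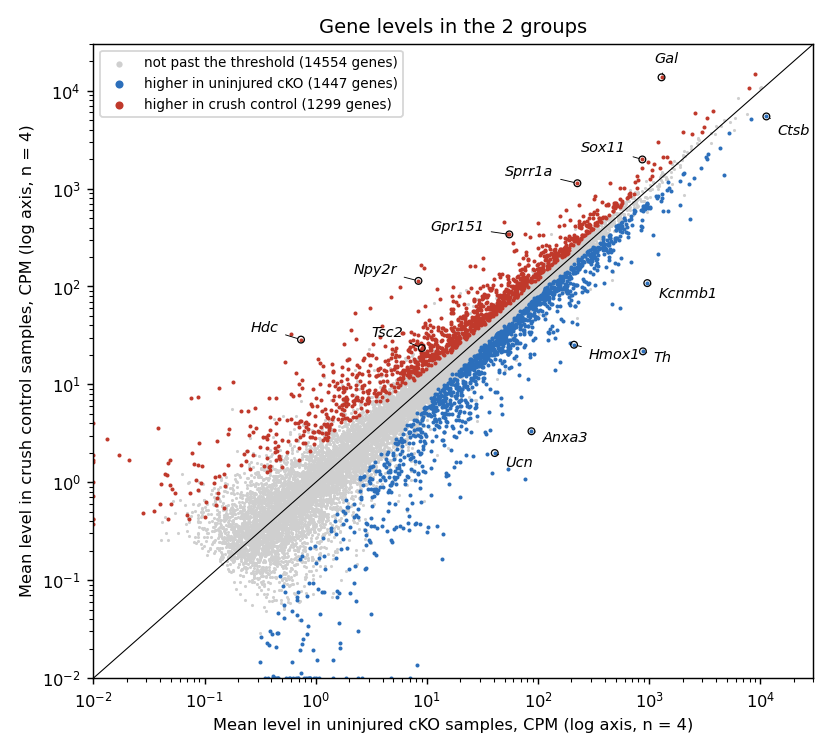
Mean level of each of the 17300 tested genes in the 4 uninjured cKO samples (horizontal, CPM, log axis) and the 4 crush control samples (vertical, CPM, log axis), with genes past the threshold in red (1299, higher in crush control) and blue (1447, higher in uninjured cKO) and 40 genes with a mean under 0.01 CPM drawn at that edge. Coloured genes lie on both sides of the line of equality over the whole range of levels, and Tsc2 lies among the red points.

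The targeted gene bore out the genotype labels. Tsc2 (ENSMUSG00000002496; chromosome 17, 24595816 to 24632630, minus strand, mm10) had 28.8, 23.8, 20.7 and 20.6 CPM in crush control replicates 1 to 4 and 8.86, 8.65, 7.40 and 11.1 CPM in uninjured cKO replicates 1 to 4. The groups did not overlap, at 23.5 ± 3.84 and 9.00 ± 1.53 CPM (SD, n = 4), a log2 difference of 1.38 ± 0.17 (edgeR adjusted p = 0.000779; exact two-sided permutation p = 0.0286). Uninjured control samples had 21.4 ± 5.26 CPM. The labels do not say which exons were floxed, and a count over the whole gene includes reads from exons that stay in a truncated transcript.

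Of 22 transcription factors of the regeneration programme measured, 10 were higher in crush control and 0 in uninjured cKO samples, with a median log2 difference of 0.62. The injury-induced factor Atf3 had 1281, 971, 1123 and 1209 CPM in crush control and 463, 436, 396 and 469 CPM in uninjured cKO samples (replicates 1 to 4 in each list), a log2 difference of 1.38 ± 0.10 (adjusted p = 8.39e-05). Every uninjured cKO sample was far below every crush control sample, and both groups lay above the uninjured control samples (78.01 ± 23.97 CPM). Sox11, a factor of developing and regenerating neurons, had 1984 ± 120 CPM after crush and 868 ± 66.9 CPM after deletion (SD, n = 4; log2 difference 1.19 ± 0.08), beside 159 ± 43.6 CPM in uninjured control samples. Klf6, a zinc finger factor linked to axon growth, and the growth regulator Myc were higher in crush control by 1.62 ± 0.15 and 1.27 ± 0.11 on the log2 scale. These 2 genes stood in another order than Atf3 and Sox11. Klf6 had 338 ± 55.2 CPM after crush, and its 110 ± 18.1 CPM after deletion and 126 ± 47.1 CPM in uninjured control samples were close. Myc had 127 ± 15.0 CPM after crush and 52.8 ± 4.70 CPM after deletion, with uninjured control samples between them at 84.7 ± 26.3 CPM. Of the 10 factors higher in crush control, 7 had an uninjured control mean below both groups and 3 between them. The median over all 22 and the count of 10 stand against 7.51% of all tested genes that were higher in crush control.

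Of 36 effectors of the programme measured, 19 were higher in crush control and 5 in uninjured cKO samples, with a median log2 difference of 0.62. Sprr1a, which encodes a proline-rich protein found in growing axons (ENSMUSG00000050359; chromosome 3, 92483952 to 92485895, minus strand), had 1598, 843, 1249 and 846 CPM in crush control and 236, 238, 250 and 179 CPM in uninjured cKO samples. The difference was 2.33 ± 0.22 on the log2 scale (adjusted p = 0.000189), while uninjured control samples had 4.40 ± 0.808 CPM. Its promoter, taken from RefSeq's sequence for the same assembly (GRCm38.p6, chr3:92485832-92486131, minus strand), is shown because it holds 2 matches to the AP-1 element TGAGTCA, the site bound by dimers of Jun, Fos and Atf3 family members, in capitals and starting at -146 and -116 (positions here and below are counted from RefSeq's gene start, the base before it being -1, and for Sprr1a that start lies inside the gene coordinates given above).
Sprr1a promoter: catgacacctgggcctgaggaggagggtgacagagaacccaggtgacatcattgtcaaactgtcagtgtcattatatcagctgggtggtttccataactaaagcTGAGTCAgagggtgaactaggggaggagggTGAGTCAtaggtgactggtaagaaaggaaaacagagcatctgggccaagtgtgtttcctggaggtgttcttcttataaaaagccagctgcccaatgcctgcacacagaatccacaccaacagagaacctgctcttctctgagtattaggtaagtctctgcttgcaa
TGAGTCA or its reverse complement TGACTCA, searched on both strands over the 250 bases before and 50 after each RefSeq gene start, occurred in 3.71% of the promoters of 11865 tested genes. It occurred in 5.33% of those of genes higher in crush control and in 4.11% of those of genes higher in uninjured cKO samples. For differences over 4-fold the shares were 8.81% and 6.88%. In the effector list 4 of 27 promoters held it. So did 4 of 30 in the list of lysosomal hydrolases and membrane proteins described below, and 0 of 16 among the regeneration transcription factors. A match describes the letters in that window and shows no binding.

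The adhesion receptor gene Flrt3 had 632 to 732 CPM in crush control and 216 to 251 CPM in uninjured cKO samples, without overlap (log2 difference 1.55 ± 0.09; adjusted p = 3.00e-05), and 36.9 ± 6.38 CPM in uninjured control samples. Lmo7, a LIM domain protein of cell junctions, was higher in crush control by 2.58 ± 0.21, the laminin receptor subunit gene Itga7 by 1.75 ± 0.17 and the cytokine signalling inhibitor gene Socs2 by 1.42 ± 0.12. Gap43, a growth cone protein named after its values were seen, had 3390 to 4143 CPM after crush and 1680 to 2240 CPM after deletion (log2 difference 0.92 ± 0.11). Among the 5 effectors higher in uninjured neurons without Tsc2, the actin-binding filamin gene Flnc had 23.6, 24.03, 24.7 and 25.1 CPM in crush control and 57.0, 77.3, 99.7 and 67.9 CPM in uninjured cKO samples (log2 difference -1.63 ± 0.16; adjusted p = 0.00023). Flnc was lower again in uninjured control samples, at 3.50 ± 1.02 CPM. Ecel1, a peptidase gene known from injured neurons, had 176, 70.7, 104 and 103 CPM in crush control and 264, 280, 261 and 236 CPM in uninjured cKO samples (log2 difference -1.20 ± 0.23). It was chosen after its values were seen. Uninjured control samples had 1.64 ± 0.854 CPM of Ecel1, so this injury gene stood above that level in both groups and furthest in the uninjured cKO samples. Integrin alpha-5 (Itga5), a fibronectin receptor subunit, went the same way, with 2.49 to 4.41 CPM after crush, 16.8 to 22.6 CPM after deletion and 0.176 ± 0.254 CPM in uninjured control samples (log2 difference -2.56 ± 0.22).

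**Figure D2:**
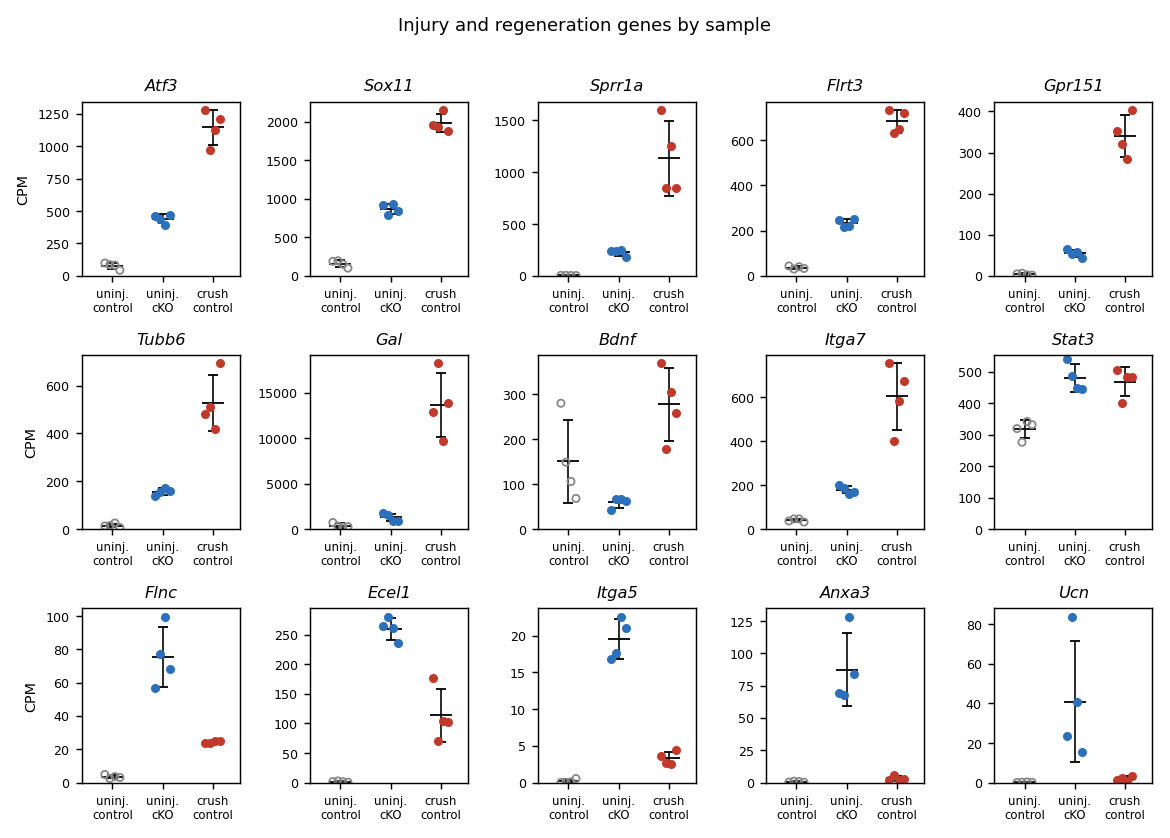
Level of 15 genes in each sample (CPM, linear axes from 0, points are the 4 samples of a group, bars the mean ± SD), with uninjured control samples in open grey as a reference, uninjured cKO in blue and crush control in red. Atf3, Sox11, Sprr1a, Flrt3, Gpr151 and Tubb6 are highest after crush, Stat3 is at a like level in the 2 groups compared, and Flnc, Ecel1, Itga5, Anxa3 and Ucn are highest after deletion.

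Some members of the programme were placed close together by their intervals. Among the regeneration and neuropeptide lists, 12 genes with at least 10 CPM had a 95% interval within 1.5-fold. Stat3, the transcription factor of cytokine signalling after injury, had 400 to 506 CPM in crush control and 444 to 539 CPM in uninjured cKO samples, overlapping, with a log2 difference of -0.03 (95% interval -0.25 to 0.19). Its uninjured control level was 317 ± 28.9 CPM. The differences were 0.12 (-0.07 to 0.31) for the actin regulator gene Cap1, -0.10 (-0.33 to 0.13) for the adhesion molecule gene L1cam and 0.12 (-0.21 to 0.45) for the growth factor gene Nrg1. For Jund and Fos, subunits of AP-1, they were -0.18 (-0.44 to 0.08) and 0.21 (-0.06 to 0.47). Cckbr, the cholecystokinin B receptor gene, named after its values were seen, had 41.3 to 87.5 CPM after crush, 80.1 to 101 CPM after deletion and 0.403 ± 0.0624 CPM in uninjured control samples. Its difference of -0.60 ± 0.20 missed the threshold (adjusted p = 0.0676), although it passed without crush control replicate 1 (-0.85).

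Neuropeptide and secreted factor genes separated the states further. Of 24 measured, 8 were higher in crush control and 3 in uninjured cKO samples. Galanin (Gal; chromosome 19, 3409915 to 3414544, minus strand), a neuropeptide raised by axon injury, had 12920, 18240, 9684 and 13930 CPM in crush control and 1772, 1553, 959 and 884 CPM in uninjured cKO samples. Every crush control sample was more than 5 times above every uninjured cKO sample, and the log2 difference was 3.41 ± 0.27 (adjusted p = 0.000114), beside 402 ± 231 CPM in uninjured control samples. The growth factor genes Bdnf (278 ± 81.3 against 59.9 ± 12.3 CPM; 2.21 ± 0.23), Csf1, a microglia and macrophage growth factor (120 ± 23.5 against 39.9 ± 6.38 CPM; 1.58 ± 0.16), and Fgf3 (18.0 ± 5.23 against 1.98 ± 0.929 CPM; 3.19 ± 0.39) were higher after crush as well. Uninjured control samples had 151 ± 92.2 CPM of Bdnf, above the uninjured cKO mean. Npy, neuropeptide Y, named after its values were seen, was spread widely among crush control samples, at 154, 7.68, 89.6 and 361 CPM, and overlapped the uninjured cKO samples at 9.32, 14.9, 4.24 and 8.95 CPM. Its difference of 4.03 ± 0.90 (adjusted p = 0.0133) fell to 3.17 without crush control replicate 4 and was not called by limma-voom (adjusted p = 0.144). Urocortin (Ucn), a stress peptide, was higher after deletion, with 23.5, 83.8, 40.6 and 15.3 CPM against 1.20, 2.21, 0.974 and 3.58 CPM after crush (log2 difference -4.37 ± 0.61, and -3.74 without uninjured cKO replicate 2). Only 1 gene of this list remained higher in uninjured cKO samples when crush control replicate 1 or 3 or uninjured cKO replicate 1, 2 or 4 was left out.

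Genes of the axonal cytoskeleton were called mainly in one direction, though most did not pass the threshold. Of 37 tubulin, neurofilament and microtubule-associated genes, 15 were higher in crush control and 1, peripherin (Prph), in uninjured cKO samples (median log2 difference 0.36). Tubb6, a tubulin of growing axons, had 482, 511, 420 and 693 CPM in crush control and 137, 157, 173 and 158 CPM in uninjured cKO samples (1.75 ± 0.15; adjusted p = 0.000145) and 15.4 ± 8.00 CPM in uninjured control samples. The microtubule-binding kinase gene Dclk1 was higher after crush by 1.42 ± 0.16, the microtubule regulator Stmn2 by 0.73 ± 0.09 and the tubulin gene Tubb2a by 0.66 ± 0.08. Prph, an intermediate filament of small neurons, had 889 to 1151 CPM after crush and 1227 to 1924 CPM after deletion (-0.57 ± 0.15; adjusted p = 0.0248). It lost its call without crush control replicate 2 or 4 or uninjured cKO replicate 1 or 2 (-0.57 to -0.43). Kinesins and other transport motors went in both directions, with 7 of 26 higher in crush control, among them Kif5c (0.66 ± 0.12), and 4 higher in uninjured cKO samples, among them Kif5b (-0.64 ± 0.12).

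Genes of protein synthesis and turnover that passed differed by small amounts. Of all tested genes, 7.51% were higher in crush control and 8.36% in uninjured cKO samples. Of 36 translation initiation and elongation factors, 7 were higher in crush control and 0 in uninjured cKO samples, led by Eif3b (186 ± 25.2 against 114 ± 5.40 CPM; 0.70 ± 0.10) and the cap-binding protein gene Eif4e (251 ± 26.9 against 176 ± 10.5 CPM; 0.51 ± 0.09). The 95% interval lay within 2-fold for all 36 of them, against 50.8% of all tested genes. Of 36 proteasome subunits, 10 were higher in crush control and 0 in uninjured cKO samples (5 without uninjured cKO replicate 1), with Psmc3 at 0.42 ± 0.07 and Psmd2 at 0.46 ± 0.08. Of 32 ribosome biogenesis genes, 4 were higher in crush control, a count that fell to 1 without uninjured cKO replicate 1, 2 or 4. That count lies near the share of all tested genes, so nothing is read from it. Cytosolic aminoacyl-tRNA synthetases, which charge tRNAs and are targets of the stress factor ATF4, were higher after crush in 5 of 23 cases, with Kars at 0.52 ± 0.10 and Yars at 0.42 ± 0.09, and lower in 1, Sars, which lost its call without crush control replicate 1, 2 or 3 or uninjured cKO replicate 1, 3 or 4.

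Genes of lysosomal hydrolases and membrane proteins were called in one direction only. Of 39 lysosomal hydrolases, cathepsins and membrane proteins measured, 26 were higher in uninjured cKO samples and 0 in crush control samples, with a median log2 difference of -0.61, beside 8.36% of all tested genes higher in uninjured cKO samples. Cathepsin B (Ctsb; chromosome 14, 63122462 to 63145923, plus strand), a lysosomal protease, had 4821, 6131, 5118 and 5757 CPM in crush control and 11480, 10840, 12000 and 11050 CPM in uninjured cKO samples, a log2 difference of -1.05 ± 0.09 (adjusted p = 0.000145). The crush control samples stood near the uninjured control samples (4937 ± 359 CPM), and the uninjured cKO samples apart from both. Lipa, the lysosomal acid lipase gene, showed the same pattern, with 91.2 to 128 CPM after crush, 258 to 334 CPM after deletion and 97.2 ± 10.9 CPM in uninjured control samples (-1.40 ± 0.12). The protease gene Ctsa (-1.09 ± 0.09) and Gla (-1.14 ± 0.11), which encodes alpha-galactosidase A, were lower after crush as well. So were the lysosomal calcium channel gene Mcoln1 (-1.01 ± 0.12) and the progranulin gene Grn (-0.92 ± 0.10), both named after their values were seen. Of the 26 genes, 15 had an uninjured control mean below both groups, 9 between them and 2 above. Between 20 and 27 members were higher in uninjured cKO samples when any 1 sample was left out.

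The proton pump that acidifies lysosomes (V-ATPase) had 11 of 18 subunits higher in uninjured cKO and 2 in crush control samples. Atp6v1f had 198 to 252 CPM in crush control and 403 to 442 CPM in uninjured cKO samples (-0.90 ± 0.09; adjusted p = 0.000283), and Atp6v0d1 204 to 235 against 310 to 381 CPM (-0.61 ± 0.09). Of the 2 higher in crush control, Atp6v0c differed by 2.53 ± 0.16, at 21.1 to 28.1 against 3.46 to 4.88 CPM. That value is uncertain, because reads of this gene can be shared with near-identical copies. One of them, Atp6v0c-ps2, named after its values were seen, had 30.1 to 36.5 CPM after crush and 79.1 to 85.7 CPM after deletion (-1.26 ± 0.09). Among amino acid transporters, Slc36a1, which carries amino acids out of the lysosome to the mTORC1 sensing machinery, had 89.2, 98.7, 122 and 106 CPM in crush control and 226, 217, 236 and 212 CPM in uninjured cKO samples, without overlap (-1.10 ± 0.10; adjusted p = 0.000201). By contrast Slc1a4, a plasma membrane carrier of alanine, serine and cysteine, was higher after crush (1.51 ± 0.14).

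The E-box CACGTG, which is its own reverse complement and is the core of the element bound by the lysosomal regulators TFEB, TFE3 and MITF as well as by MYC and other factors, was searched in the same windows. It occurred in 9.77% of all 11865 promoters. The share was 6.97% for genes higher in crush control and 14.1% for genes higher in uninjured cKO samples. For differences over 4-fold, 5.03% and 10.1% of promoters held the E-box, the latter close to the share among all promoters. In the list of lysosomal hydrolases and membrane proteins 11 of 30 promoters held it (36.7%), and in the V-ATPase list 4 of 13. A pair of promoters in which it lies near the gene start is printed, with the E-box in capitals, from RefSeq on GRCm38.p6. In some other named genes it lay further away, as in Gla (-227 and -194). In others it also lay near the start, as in Slc12a7 (-1) and Bax (-9 and 36). Klf6, which was higher in crush control, also held it (-43). In Slc36a1 (chr11:55204090-55204389, plus strand) matches start at -31 and -3, and in Atp6v0d1 (chr8:105566015-105566314, minus strand) at -3.
Slc36a1 promoter: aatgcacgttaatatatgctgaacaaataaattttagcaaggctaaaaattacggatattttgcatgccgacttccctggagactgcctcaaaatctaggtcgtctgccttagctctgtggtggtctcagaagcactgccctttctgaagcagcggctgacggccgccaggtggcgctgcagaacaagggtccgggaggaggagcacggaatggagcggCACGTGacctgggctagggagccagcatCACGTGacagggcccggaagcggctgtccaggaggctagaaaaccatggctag
Atp6v0d1 promoter: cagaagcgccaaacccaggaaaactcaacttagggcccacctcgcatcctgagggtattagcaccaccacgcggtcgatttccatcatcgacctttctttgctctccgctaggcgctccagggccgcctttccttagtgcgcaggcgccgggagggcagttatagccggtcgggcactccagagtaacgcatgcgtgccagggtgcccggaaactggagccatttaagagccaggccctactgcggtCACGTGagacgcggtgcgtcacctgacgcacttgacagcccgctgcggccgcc

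**Figure D3:**
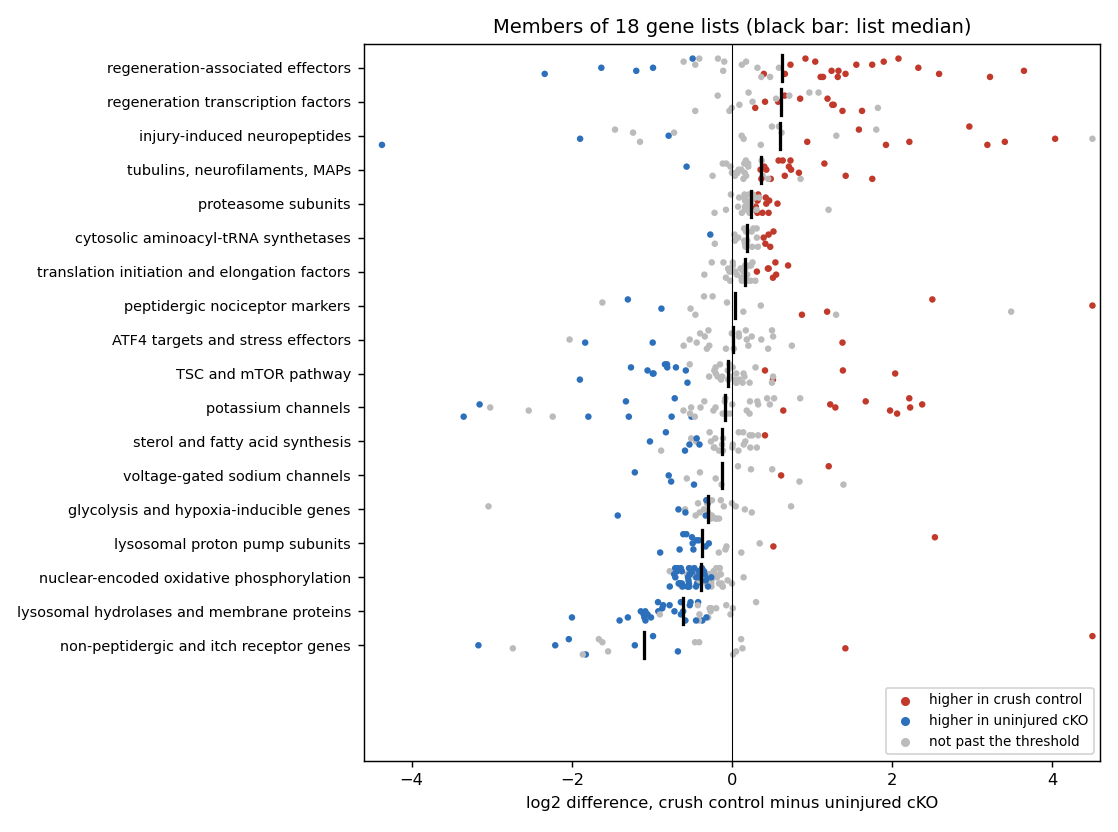
Log2 difference (crush control minus uninjured cKO, horizontal) of each measured member of 18 gene lists, with red points higher in crush control, blue points higher in uninjured cKO samples, grey points not past the threshold, the black bar at the list median, and 3 members beyond 4.5 drawn at that limit. Regeneration lists lie to the right (medians 0.60 to 0.62) and lysosomal hydrolases (-0.61) and non-peptidergic and itch receptor genes (-1.10) to the left.

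Genes of oxidative phosphorylation were also called in one direction only. Of 76 nuclear-encoded subunits of oxidative phosphorylation, 45 were higher in uninjured cKO and 0 in crush control samples, with a median of -0.38 and 71 of the 76 intervals within 2-fold. Atp5g3, a subunit of ATP synthase, had 272, 273, 272 and 253 CPM in crush control and 400, 444, 416 and 438 CPM in uninjured cKO samples (-0.67 ± 0.07; adjusted p = 0.000408). Uqcrh of complex III (-0.72 ± 0.08) and Ndufb9 (-0.66 ± 0.08) and Ndufb10 (-0.71 ± 0.08) of complex I were lower after crush too. With 1 sample left out, 33 to 48 members were higher in uninjured cKO samples. Of 13 mitochondrially encoded protein genes only 7 were tested, and 6 of these were higher in uninjured cKO samples. For instance, mt-Nd1 had 1839 to 2503 CPM after crush and 2696 to 3661 CPM after deletion (-0.64 ± 0.12). This is the shift already seen in the mitochondrial share of counts. Among glycolysis and hypoxia-inducible genes, 6 of 27 were higher in uninjured cKO samples and 0 in crush control samples. Aldoc, a glycolytic aldolase, led them with 75.3 to 124 against 224 to 301 CPM (-1.43 ± 0.16). Of 31 sterol and fatty acid synthesis genes, 6 were higher in uninjured cKO samples and 1 in crush control. The fatty acid desaturase gene Scd1 had 286 to 339 CPM after crush, 625 to 688 CPM after deletion and 351 ± 88.0 CPM in uninjured control samples (-1.02 ± 0.08; adjusted p = 0.000114).

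Haem oxygenase 1 (Hmox1), an antioxidant enzyme, was 8.31-fold higher after deletion: crush control samples had 8.61, 36.6, 34.6 and 21.8 CPM and uninjured cKO samples 260, 210, 181 and 193 CPM (log2 difference -3.05 ± 0.38; adjusted p = 0.000858), with uninjured control samples at 35.0 ± 24.9 CPM. Of 25 glutathione and NRF2 target genes, 5 were higher in uninjured cKO samples and 1 in crush control (2 or 3 without crush control replicate 2 or 3 or uninjured cKO replicate 2). Chchd10, a mitochondrial intermembrane space protein (chromosome 10, 75933130 to 75937747, plus strand), had 0.991, 1.49, 1.95 and 2.02 CPM after crush and 19.2, 19.5, 15.7 and 25.4 CPM after deletion (-3.63 ± 0.27; adjusted p = 8.35e-05). Its promoter is shown (RefSeq, GRCm38.p6, chr10:75932880-75933179, plus strand) because it holds 2 copies of the ATF4 composite element TGATGCAA, in capitals and starting at -85 and -72. This element was searched as TGATGCAA or TGATGAAA on both strands. It occurred in 1.15% of all promoters, in 0.82% for genes higher in crush control and in 1.40% for genes higher in uninjured cKO samples. Genes named here as higher in crush control also held it, as in Atf3 (-110), Slc1a4 (-4) and Yars (4). Got1, with a log2 difference of -0.67, held it at -102, and Aars, described below, held 2 copies (-112 and 10).
Chchd10 promoter: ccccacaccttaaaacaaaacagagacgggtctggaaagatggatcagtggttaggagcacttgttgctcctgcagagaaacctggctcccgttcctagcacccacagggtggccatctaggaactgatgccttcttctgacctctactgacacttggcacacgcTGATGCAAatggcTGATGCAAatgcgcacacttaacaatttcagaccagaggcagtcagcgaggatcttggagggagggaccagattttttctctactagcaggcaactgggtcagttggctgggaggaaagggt

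Within the pathway that Tsc2 controls, 11 of 41 genes were higher in uninjured cKO and 4 in crush control samples, Tsc2 among the 4. Sesn3, a sestrin that restrains mTORC1 when amino acids are scarce, had 14.3, 14.1, 12.3 and 17.9 CPM in crush control and 56.6, 52.2, 49.0 and 60.7 CPM in uninjured cKO samples (-1.90 ± 0.14; adjusted p = 7.21e-05). Rragd, a Rag GTPase that brings mTORC1 to the lysosome, was lower after crush (-0.81 ± 0.11). Flcn, which acts on the Rag GTPases, had a difference of -1.05 ± 0.21. Tsc1, the partner of Tsc2, had 10.7 ± 4.23 CPM after crush and 21.3 ± 5.01 CPM after deletion (-0.99 ± 0.28; adjusted p = 0.0384), but lost its call when crush control replicate 1, 2 or 4 or uninjured cKO replicate 1, 3 or 4 was left out (-1.08 to -0.80). Flcn and Tsc1 were chosen after their values were seen. In the other direction the insulin receptor substrate gene Irs2 had 82.4, 56.1, 84.5 and 94.0 CPM in crush control and 20.4, 16.2, 19.6 and 21.0 CPM in uninjured cKO samples (2.04 ± 0.16), with uninjured control samples at 17.05 ± 2.17 CPM.

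Targets of ATF4, the transcription factor of the amino acid response were called no more often than all tested genes (7.51% higher in crush control and 8.36% in uninjured cKO samples), so nothing is read from their number. Of 26 measured, 1 was higher in crush control (Atf3, described above; 3 without crush control replicate 2) and 2 in uninjured cKO samples, and 16 of the 26 intervals lay within 2-fold. Ddit3, the stress factor CHOP, had 86.1 to 101 CPM after crush and 168 to 196 CPM after deletion (-0.99 ± 0.09; adjusted p = 0.000154). Atf4 itself (260 ± 40.9 against 202 ± 6.86 CPM; 0.37 ± 0.11) missed the threshold at an adjusted p of 0.0527, and passed it without crush control replicate 2 (0.46) and with DESeq2, limma-voom, DESeq2-style size factors, a glial covariate or all 16 samples in one fit (0.36 to 0.37). The tRNA synthetase gene Aars (0.17; 95% interval -0.08 to 0.42) and Chac1, a glutathione-degrading enzyme (0.45; -0.09 to 0.99), also missed it. These 3 were named after their values were seen, and the uninjured control levels of Atf4, Aars and Chac1, 89.5 ± 11.6, 84.8 ± 5.21 and 5.25 ± 1.69 CPM, lay below both groups. Chac1 passed without crush control replicate 2 (0.68).

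Genes that mark kinds of nociceptor were called in both directions. In sorted bulk samples, fewer cells of a kind and less RNA per cell cannot be told apart. Of 20 genes of the non-peptidergic and itch-sensing classes, 7 were higher in uninjured cKO and 2 in crush control samples (median -1.10), but the 7 fell to 2 without crush control replicate 4 or uninjured cKO replicate 1, 2 or 3 and to 3 without uninjured cKO replicate 4. Mrgprd, a receptor of non-peptidergic skin afferents named after its values were seen, had 1.51, 97.7, 118 and 25.6 CPM in crush control and 556, 494, 606 and 524 CPM in uninjured cKO samples, with 163 ± 148 CPM in uninjured control samples. The crush control samples differed widely, and although the groups did not overlap the call (-3.17 ± 0.90; adjusted p = 0.0385) was lost without crush control replicate 2 or 4 or any 1 uninjured cKO replicate (-3.49 to -2.91). The sodium channel gene Scn11a (-1.21 ± 0.26) was also lower after crush. Il31ra, the itch receptor subunit for interleukin 31, was higher after crush, at 8.15 to 32.8 against 0.188 to 1.11 CPM (4.97 ± 0.66, and 5.61 without uninjured cKO replicate 4), with 22.1 ± 12.6 CPM in uninjured control samples.

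Some markers of peptidergic nociceptors, 4 of 16, were lower in uninjured cKO samples than after crush. Calca, which encodes the peptide CGRP, had 6555, 7008, 4417 and 5667 CPM in crush control, 2599, 3425, 1902 and 2460 CPM in uninjured cKO and 10430 ± 4663 CPM in uninjured control samples (1.19 ± 0.19; adjusted p = 0.00256). The stem cell factor receptor gene Kit had 117, 120, 63.3 and 90.3 CPM after crush and 8.46, 16.2, 15.9 and 28.3 CPM after deletion (2.50 ± 0.34), and Ngfr, the p75 neurotrophin receptor gene, 220 to 434 against 60.4 to 98.2 CPM (2.17 ± 0.22). For Calca, Kit and Ngfr the uninjured control mean lay above both groups, nearer to the crush control mean. Of the 16 peptidergic markers, 4 were higher in crush control and 2 in uninjured cKO samples, the latter 0 or 1 without crush control replicate 3 or 4 or uninjured cKO replicate 1, 2 or 4. Of 23 identity factors 6 were higher in each direction, and the 6 higher in crush control fell to 3 without uninjured cKO replicate 1 or 4. Runx1, which specifies non-peptidergic neurons, was higher in uninjured cKO samples (111 to 162 against 56.8 to 87.7 CPM; -1.04 ± 0.16), and Etv5, an ETS factor downstream of growth factor signalling, in crush control samples (33.9 to 50.2 against 6.59 to 14.4 CPM; 2.07 ± 0.24).

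Ion channel genes were called in both directions, beside 7.51% of all tested genes higher in crush control and 8.36% in uninjured cKO samples. Counts such as 2 of 16 or 3 of 29 below lie near these shares, so nothing is read from them. Of 15 sodium channel genes, 4 were higher in uninjured cKO samples and 2 in crush control (1 without crush control replicate 2 or 3 or uninjured cKO replicate 1 or 2). Scn10a, the sodium channel whose promoter drove Cre, had 338, 390, 419 and 280 CPM in crush control and 606, 670, 585 and 608 CPM in uninjured cKO samples (-0.79 ± 0.12; adjusted p = 0.00223), beside 687 ± 139 CPM in uninjured control samples. Scn9a had 389 to 416 against 498 to 669 CPM (-0.47 ± 0.10). For the 4 sodium channel genes higher in uninjured cKO samples, and for the 2 higher in crush control, the uninjured control mean lay above both groups. Kcnmb1, the beta-1 partner of the BK potassium channel, had 27.8, 118, 145 and 142 CPM after crush and 1189, 949, 1027 and 684 CPM after deletion (-3.15 ± 0.44; adjusted p = 0.00145). Dpp10, whose product binds and modulates A-type potassium channels, had 3.45 to 21.9 against 131 to 154 CPM (-3.35 ± 0.44). Among 44 potassium channel genes, 9 were higher in crush control, with the M-type channel gene Kcnq5 at 10.2 to 12.4 against 1.47 to 3.46 CPM (2.37 ± 0.31), and 8 in uninjured cKO samples (5 without crush control replicate 4 or uninjured cKO replicate 3 or 4). Of 16 calcium channel subunit genes, 3 were higher in crush control and 2 in uninjured cKO samples, and either count fell to 1 in some of the fits without 1 sample. The pain-related calcium channel subunit gene Cacna2d1 was higher after crush (1005 ± 118 against 551 ± 38.6 CPM; 0.87 ± 0.10). Of 29 genes of TRP, ASIC, P2X, HCN, Piezo and related channels, 5 were higher in crush control and 3 in uninjured cKO samples. Among the 5, Ano1, a calcium-activated chloride channel gene, had 7.11 to 12.2 CPM after crush and 0 to 0.335 CPM after deletion (5.90 ± 0.72). The T-type channel gene Cacna1i had 0 reads in all 4 crush control samples, where 3 counts per sample would be 0.0472 to 0.0678 CPM, and 2.61 ± 1.31 CPM in uninjured cKO samples, at least 43.4-fold more. Gpr151, an orphan receptor raised by nerve injury, had 353, 322, 284 and 403 CPM after crush and 65.7, 52.2, 58.3 and 44.5 CPM after deletion (2.63 ± 0.15; adjusted p = 3.00e-05). Npy2r, a receptor for neuropeptide Y, had 82.8 to 165 against 5.96 to 9.69 CPM (3.76 ± 0.25), and 87.9 ± 25.1 CPM in uninjured control samples.

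**Figure D4:**
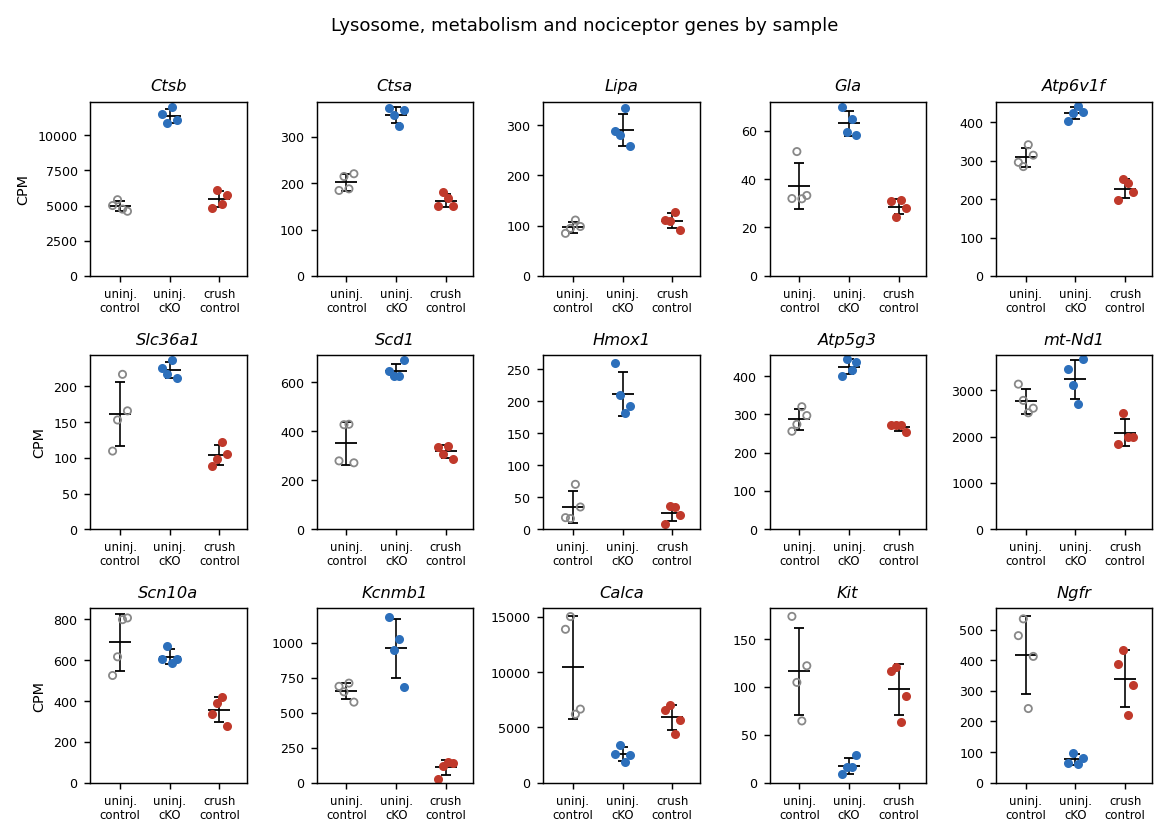
Level of 15 genes in each sample (CPM, linear axes from 0, points are the 4 samples of a group, bars the mean ± SD), with uninjured control samples in open grey as a reference, uninjured cKO in blue and crush control in red. Ctsb, Lipa, Scd1 and Hmox1 are high in uninjured cKO samples and alike in the other groups, Scn10a and Kcnmb1 are low after crush, and Calca, Kit and Ngfr are low after deletion.

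The largest differences among genes with at least 10 CPM and no overlap between the groups were partly outside these lists. In crush control samples Hdc, the enzyme that makes histamine, led with 17.4, 15.0, 21.2 and 61.0 CPM against 0.0419, 1.35, 0.563 and 0.994 CPM (5.26 ± 0.76, and 4.59 without crush control replicate 4; adjusted p = 0.00161). Annexin A1 (Anxa1), an anti-inflammatory phospholipid-binding protein, had 607, 354, 428 and 439 CPM after crush and 22.3, 36.5, 94.1 and 43.1 CPM after deletion (3.22 ± 0.40), and 2.72 ± 0.979 CPM in uninjured control samples. The arginase gene Arg2 differed by 3.84 ± 0.55 (4.55 without uninjured cKO replicate 1), the cytokine gene Il6 by 3.65 ± 0.55 (4.49 without uninjured cKO replicate 4), the crystallin-domain gene Crybg1 by 3.01 ± 0.20 and the metalloproteinase inhibitor gene Timp1 by 2.96 ± 0.37. In uninjured cKO samples another annexin, Anxa3, had 69.0, 67.7, 128 and 84.2 CPM against 2.30, 5.87, 2.08 and 3.04 CPM after crush (-4.72 ± 0.37; adjusted p = 0.000111), and 0.625 ± 0.382 CPM in uninjured control samples. Th, tyrosine hydroxylase, the marker of C-fibre low-threshold mechanoreceptors, had 1222, 897, 91.9 and 1303 CPM after deletion and 56.0, 12.4, 11.5 and 6.98 CPM after crush (-5.33 ± 0.93, and -6.41 without crush control replicate 1). Uninjured cKO replicate 3 was far below the other 3 but still above every crush control sample, and uninjured control samples had 102 ± 70.9 CPM. Rasd2, a striatum-enriched small GTPase that binds mTOR, differed by -4.94 ± 0.66 (-5.92 without crush control replicate 3) and Npl, a sialic acid-cleaving enzyme, by -3.35 ± 0.28.

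Levels in uninjured control samples did not place one state as the nearer of the pair to the resting neuron across all calls. Of the 1299 genes higher in crush control, the uninjured control mean was nearer to the crush control mean for 647 and nearer to the uninjured cKO mean for 652, on the log2(CPM + 1) scale. Of the 1447 higher in uninjured cKO samples, it was nearer to crush control for 755 and to uninjured cKO for 692. By order of the means, the uninjured control mean lay below both groups for 411 and 350 genes, between them for 502 and 851, and above both for 386 and 246, in the order of the directions just given. No test was made of these counts, which rest on means of 4 samples.

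Transcripts of other cells were present in both groups and are given beside these results, since their part in the differences was not tested. The 10 nociceptor and neuron markers summed to 18472 to 20486 CPM in crush control and 16497 to 18920 CPM in uninjured cKO samples, with 1 higher in crush control and 4 in uninjured cKO samples (2 without crush control replicate 4 or uninjured cKO replicate 1 or 2). The 11 satellite glia markers summed to 719 to 1215 against 706 to 905 CPM, with 2 higher in crush control, glutamine synthetase (Glul; 1.01 ± 0.08) and the glutamate transporter gene Slc1a3 (1.95 ± 0.42). The 9 Schwann cell markers tested summed to 2020 to 2217 against 1735 to 1997 CPM, with 0 called, and most of that sum was Pmp22, at 1794 ± 50.6 against 1594 ± 146 CPM. The 7 macrophage markers tested of 14 summed to 11.8 to 71.6 against 10.6 to 27.4 CPM, with 0 called, and 3 of them were higher in uninjured cKO samples without crush control replicate 2. Of the 13 vascular and fibroblast markers, 3 were higher in uninjured cKO samples, Flt1 (-3.07 ± 0.41), Acta2 (-3.60 ± 0.49) and Pdgfrb (-1.47 ± 0.33; not called without uninjured cKO replicate 1, -1.32), and their sum was 49.6 to 105 against 151 to 272 CPM. Of 5 neutrophil and lymphocyte markers tested, Ly6g was higher in crush control (3.81 ± 0.81, and 2.78 without crush control replicate 1) and S100a8 in uninjured cKO samples (-2.07 ± 0.40). Of 9 large-fibre neuron markers 1 was higher in each direction, and the 3 erythrocyte markers tested summed to under 2 CPM in every sample. When the average of glial markers was entered as a covariate, 1257 genes were higher in crush control and 1573 in uninjured cKO samples.

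The remaining lists held smaller or mixed counts, to be set beside 7.51% of all tested genes higher in crush control and 8.36% in uninjured cKO samples. Some of them, such as 1 of 28 or 4 of 29, lie near these shares, and nothing is read from their number. Among 28 interferon-induced genes, 7 were higher in crush control and 1 in uninjured cKO samples (4 in crush control without uninjured cKO replicate 2), with Isg15 at 3.04 to 9.98 against 1.19 to 2.45 CPM (1.84 ± 0.39). Among 29 p53 and apoptosis genes, 4 were higher in each direction (2 in crush control without crush control replicate 1 or 3 or uninjured cKO replicate 2 or 3), with the executioner caspase gene Casp6 higher after crush (1.70 ± 0.15) and the pro-apoptotic gene Hrk after deletion (-2.15 ± 0.41). Among 33 presynaptic release genes, 8 were higher in each direction (5 in crush control without uninjured cKO replicate 1 or 2), with the synaptotagmin gene Syt2 higher after crush (2.45 ± 0.19). Among 31 autophagy genes and MiT/TFE factors, 8 were higher in uninjured cKO and 1, Map1lc3a (0.68 ± 0.09), in crush control samples. Gpnmb, a glycoprotein induced by lysosomal stress, was among the 8 (30.2 to 88.4 against 6.80 to 19.4 CPM; -2.45 ± 0.41). Of 21 genes of the DLK-JNK injury pathway (among them kinases, phosphatases, scaffolds and the transcription factor gene Jun), 4 were higher in crush control, with Jun at 0.58 ± 0.11 and the ERK phosphatase gene Dusp6 at 1.63 ± 0.23, and 3 in uninjured cKO samples, with Dusp1 at -1.09 ± 0.12.

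Whether the comparison came out differently in male and female mice was tested by an interaction with 2 samples per group and sex. Of 17300 genes, 0 (0.0%) passed by edgeR, with 777 at an unadjusted p under 0.05 and a smallest adjusted p of 0.526. Limma-voom and DESeq2-style size factors also gave 0. With so few samples a p that misses the threshold does not show that the sexes respond alike.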

How the data were processed

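RNA-seq counts per gene were deposited by the authors for each library. Per the labels' protocols, cDNA was made from sorted cells with a SMARTer Ultra Low kit, which does not keep strand, and sequenced as single reads of 50 bases without molecular identifiers. FastQC, STAR, HTSeq, DESeq2 and mm10 are named in the submitters' processing notes, and no source used here gives their versions. The 5 summary lines of each file were left out. Per library, 39.2 to 42.6% of reads fell in the class aligned to several places, so genes with close copies are uncertain.

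The 3 aliquots of each replicate were summed, 4 samples per group, since they come from one preparation. Genes passed edgeR's filterByExpr, counts were scaled by TMM, and groups were compared with edgeR 4.0.16 in R 4.3.3 (quasi-likelihood test, Benjamini-Hochberg adjustment over all 17300 genes). Differences are crush control minus uninjured cKO on the log2 scale, with SE or 95% interval, and levels are CPM ± SD. Labels do not say whether a replicate is one animal, so p-values measure the spread between these samples. On counts simulated for this comparison over 17300 genes, 69% of genes changed 4-fold and 39% of those changed 2-fold were recovered, with 5 false calls. Far fewer genes were changed in that simulation than were called here, so these rates hold for that setting only. Same-numbered samples did not deviate together (r = 0.0131 to 0.0301), so no pairing was used. limma-voom 3.58.1, DESeq2 1.42.0, other filters, scalings and covariates, and leaving out each sample were alternatives.

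Text names Tsc2, the 15 largest differences per direction among called genes with at least 10 CPM and no overlap, and up to 4 called members of each of 52 lists, in a selection, plus genes said to be named after their values were seen. Members and lists were chosen with earlier results of these data known. Gene names and coordinates came from the mm10 annotation, for 47224 of 47643 identifiers. Promoters were matched for 181 of 233 named genes. Some genes are not reported here.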

Additional observations from a re-analysis of the deposited data

Results flagged for a closer look

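In 13 of the 233 groups of 4 samples examined for the genes named above (5.58%), 1 sample stood apart, its gap to the nearest neighbour over the group's range being past Dixon's 95% critical value. Chance alone flags about 1 in 20 such groups.

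Among crush control samples, Hdc was high in replicate 4 (61.0 CPM, others 15.0 to 21.2), Th in replicate 1 (56.0, others 6.98 to 12.4), Ly6g in replicate 1 (25.2, others 4.12 to 5.59) and Runx1 in replicate 3 (87.7, others 56.8 to 60.2). Lower than the others were Chac1 in replicate 2 (27.3 CPM, others 62.6 to 66.9), Atp5g3 in replicate 4 (252.6, others 271.7 to 273.4) and Kcnq5 in replicate 3 (10.2, others 12.3 to 12.4). Among uninjured cKO samples, replicate 3 was low for Kif5c (169 CPM, others 223 to 230.3), L1cam (290.4, others 361 to 367) and Cacna1i (0.662, others 3.08 to 3.47) and high for Dclk1 (86.8, others 74.6 to 76.1) and Slc1a3 (1.89, others 0.583 to 0.756). Replicate 1 was low for Myc (45.8 CPM, others 54.5 to 56.0). Without the sample that stood apart, the difference between groups was 4.59 for Hdc, -6.41 for Th and 2.78 for Ly6g on the log2 scale.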

How the results depend on the processing

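Under all alternatives to the count of genes higher in crush control (1299) and in uninjured cKO samples (1447), 0 genes were called in the opposite direction. The counts were 606 and 697 at an adjusted p under 0.01, 343 and 380 for differences tested beyond 1.5-fold, 373 and 441 from aliquot A alone, 267 and 293 from aliquot B and 360 and 428 from aliquot C, where fewer reads were used. With the 24 libraries as separate samples they were 1977 and 1828, but aliquots of one replicate are not independent. With the replicate number as a block, 1032 and 1195 genes were called, and 986 and 1126 of them were among the calls above. DESeq2 gave 1749 and 1869, limma-voom 1371 and 1699, and the sex covariate 1226 and 1380. With 1 sample left out, the counts ranged from 944 to 1336 and from 1011 to 1507, the lowest without uninjured cKO replicate 1, and the Tsc2 difference from 1.27 to 1.5004. Of 217 named genes called, 24 lost the call in at least 1 of these fits. Named genes were mostly chosen for a large difference or a small p, so this share does not stand for all calls. Without uninjured cKO replicate 1, 907 of the 1299 and 983 of the 1447 calls were kept. Lyz2, a macrophage marker that was not called, changed sign without crush control replicate 2 (-6.42) and had differences up to 2.96 without any other sample (without uninjured cKO replicate 4). With no filter on low counts, the interaction with sex was called for 271 of 30054 genes, against 0 of 17300. The causes of these shifts in counts were not tested beyond the change in reads or samples that each setting makes. Intervals cover the spread of 4 samples per group, and genes with few reads have wide ones.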

Other observations

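Some differences lay near Tsc2 on chromosome 17, where a linked stretch of chromosome or the mixed strain background could differ between genotypes. These cannot be told apart from the deletion here. The genes named here were chosen after their values were seen. Atp6v0c, 0.447 Mb from Tsc2, had mean levels of 25.5 CPM in uninjured control, 24.5 in crush control, 4.22 in uninjured cKO and 5.05 in crush cKO samples, so that the groups of each genotype lay close together. Rps2, a ribosomal protein gene 0.106 Mb away, had 5.56, 9.99, 1.10 and 1.29 CPM in the same order, and Rnps1, a splicing-associated gene 0.194 Mb away, 22.9, 22.4, 12.3 and 13.8 CPM. Atp6v0c-ps2, a copy of Atp6v0c, went the other way with 33.6, 34.2, 82.1 and 82.3 CPM, and reads of these genes may be shared with copies. By distance from Tsc2, 16.9% of 71 tested genes within 1 Mb, 6.82% of 44 between 1 and 2 Mb, 19.5% of 82 between 2 and 5 Mb, 10.5% of 124 between 5 and 10 Mb, 28.4% of 176 between 10 and 20 Mb and 11.3% of 283 between 20 and 100 Mb were called, beside 15.9% of all tested genes. The H2 genes of MHC class I lie on the same chromosome. Of 14 MHC class I and antigen presentation genes listed, 4 were higher in uninjured cKO samples (1 or 2 without crush control replicate 4 or any 1 uninjured cKO replicate) and 2 in crush control (0 or 1 without crush control replicate 1 or 2 or uninjured cKO replicate 1, 2 or 3). The 2 were H2-T24, with 12.1, 11.1, 0.752 and 0.858 CPM in the order above, and H2-T22, with 14.3, 12.1, 3.52 and 5.75 CPM. In the other direction, and not in that list, H2-Q1 had 0.046, 0.023, 1.65 and 2.44 CPM, H2-Q2 0.0139, 0.0304, 2.42 and 3.87 CPM and H2-Q10 0.00999, 0.141, 2.23 and 3.68 CPM. Reads of such near-identical genes are assigned with doubt.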
